A study of Mus musculus with 7 samples.

Results

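The genes described here are 9 transcription factors that give progenitor cells of the developing forebrain their regional identity: Emx1, Emx2, Lhx2 and Pax6 on the dorsal side, Gsx1, Gsx2 and Nkx2-1 on the ventral side, and Meis1 and Meis2, which are used on both. They were chosen by name from the 24346 genes of the deposited expression table, and the choice was made with their levels in Med23 CKO (conditional knockout) and control libraries known. Their levels and differences are therefore given as a description, with no test. All 9 are listed in the table, and 7 of them had a mean of at least 0.5 FPKM over the libraries (fragments scaled to the length of the transcript and to the fragments mapped in the library, a level per length that can be compared between genes). Gsx2 and Nkx2-1 fell below that level and are given by their values only.

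The RNA came from primary neurospheres, floating colonies that neural stem and progenitor cells form in EGF and FGF, cultured from the hippocampus of adult C57/BL6 mice. There were 4 control libraries (named WT_215, WT_116, WT_213, WT_220) and 3 Med23 CKO libraries (named KO_117, KO_214, KO_218), and the cells of each library came from 1 mouse. Med23 CKO mice were Nestin-CreER:Med23 flox/flox, in which tamoxifen activates the Cre recombinase in cells where the Nestin promoter is active, and Cre removes floxed exons of Med23, a tail subunit of the Mediator complex that links transcription factors to RNA polymerase II. The control mice carry the label wild type, and the study's methods describe its controls as littermates that were Med23 flox/+, or flox/flox without Cre. Both groups received tamoxifen at 200 mg/kg for 5 days, at the age of 2 months by the labels and at an earlier age for cultures by the methods, and recovered for several weeks. Since the recombination depends on Cre in single cells, a culture can also hold cells that kept the gene.

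Med23 itself was measured at 11.4, 10.3, 12.9 and 10.1 FPKM in the control libraries and at 9.97, 9.27 and 8.12 FPKM in the Med23 CKO libraries, each list in the order of libraries given above, which is kept throughout. Each Med23 CKO library was lower than each control library, with a difference of -0.26 (SE 0.18) in mean log2(FPKM + 1), an amount that could also be counted from transcripts without the floxed exons. The stem cell markers Nes and Sox2 were present in every library, at 61.1 to 240 FPKM and 69.4 to 194 FPKM. Other lineages were present too. Microglia markers summed to 1060 FPKM in the library KO_214 and to between 48.4 and 281 FPKM in the other libraries, and ependymal and choroid plexus markers summed to 654 FPKM in the library WT_215, of which Ttr gave 630 FPKM, and to between 11.2 and 74.3 FPKM elsewhere. Both libraries are therefore also left out where a result rests on them.

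In the embryonic telencephalon, regional factors divide the stem cell layer into domains that later produce different neurons. Emx1, Emx2, Lhx2 and Pax6 mark the dorsal wall, from which cortex and hippocampus arise, Gsx1 and Gsx2 mark the lateral ganglionic eminence below it, and Nkx2-1 marks the medial ganglionic eminence, where it depends on the secreted signal Shh. Stem cells keep part of this code into adult life. Meis1 and Meis2 are homeodomain proteins of the TALE class that bind DNA together with Pbx partners and are found in several domains, the lateral ganglionic eminence among them.

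Promoters of 3 members are printed to show how unlike the upstream sequences of these genes are: those of Lhx2, the member with the highest level, and of the paralogs Gsx1 and Gsx2, a ventral pair with lower mean levels in Med23 CKO. Each is the 250 bases before the RefSeq transcription start on GRCm38.p6, on the plus strand and 5′ to 3′. The Lhx2 sequence lies at chr2:38339031-38339280, before the more upstream of 2 listed starts, the Gsx1 sequence at chr5:147188446-147188695 and the Gsx2 sequence at chr5:75075351-75075600. Capitals mark the GC box GGGCGG, the binding sequence of Sp factors, and the TATA box TATAAA, each searched on both strands.
Lhx2: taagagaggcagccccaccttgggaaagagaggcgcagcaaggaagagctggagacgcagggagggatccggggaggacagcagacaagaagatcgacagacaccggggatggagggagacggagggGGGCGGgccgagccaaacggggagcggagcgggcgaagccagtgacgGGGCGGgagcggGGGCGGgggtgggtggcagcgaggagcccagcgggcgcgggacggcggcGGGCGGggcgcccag
Gsx1: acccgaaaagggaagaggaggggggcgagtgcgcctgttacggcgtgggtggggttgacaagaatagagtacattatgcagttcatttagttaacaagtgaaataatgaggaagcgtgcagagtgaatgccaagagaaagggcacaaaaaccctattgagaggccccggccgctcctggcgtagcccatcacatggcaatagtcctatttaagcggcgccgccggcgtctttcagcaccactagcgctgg
Gsx2: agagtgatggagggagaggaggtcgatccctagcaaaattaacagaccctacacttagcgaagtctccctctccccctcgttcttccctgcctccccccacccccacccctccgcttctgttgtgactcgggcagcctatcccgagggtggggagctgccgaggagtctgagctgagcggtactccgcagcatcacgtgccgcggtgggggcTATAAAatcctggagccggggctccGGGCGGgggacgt
The Lhx2 promoter held 72.8% G and C and 4 GC boxes. The Gsx2 promoter held 63.6% G and C, 1 GC box and 1 TATA box, whereas that of Gsx1 held 54.0% G and C and neither motif. Over the 32851 promoters listed in RefSeq the median was 52.4% G and C, 32.7% held GGGCGG and 12.4% held TATAAA. All 9 members had a listed promoter, and their ratio of observed to expected CpG dinucleotides ran from 0.497 in Meis2 to 0.895 in Lhx2, above the median of 0.374 over all promoters. The homeodomain core TAATTA, found in 4.84% of promoters, and the Meis sequence TGACAG, found in 15.9%, had no match in any of the 9. The ETS core CCGGAA, of interest because Med23 binds the ETS factor Elk1, was found once, in Meis1, against 12.03% of all promoters. The letters of these windows say nothing of which factor was bound in the neurospheres.

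In the control neurospheres the levels of the 9 genes followed the order Lhx2, Meis2, Emx2, Meis1, Pax6, Gsx1, Nkx2-1, Emx1 and Gsx2 by group mean. Lhx2 was above Meis2, Meis2 above Emx2 and Emx2 above Meis1 in 7 of 7 libraries, so the upper part of this order was shared by both groups. Meis1 and Pax6 did not keep an order, since Meis1 was the higher of the pair in 2 of the 4 control libraries and in 0 of the 3 Med23 CKO libraries. Pax6 was above Gsx1 in 6 of 7 libraries, the exception being WT_220. Gsx2, Emx1 and Nkx2-1 made up the bottom of the order, which was not stable there, since Nkx2-1 exceeded Emx1 only in the library WT_215.

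**Figure D1:**
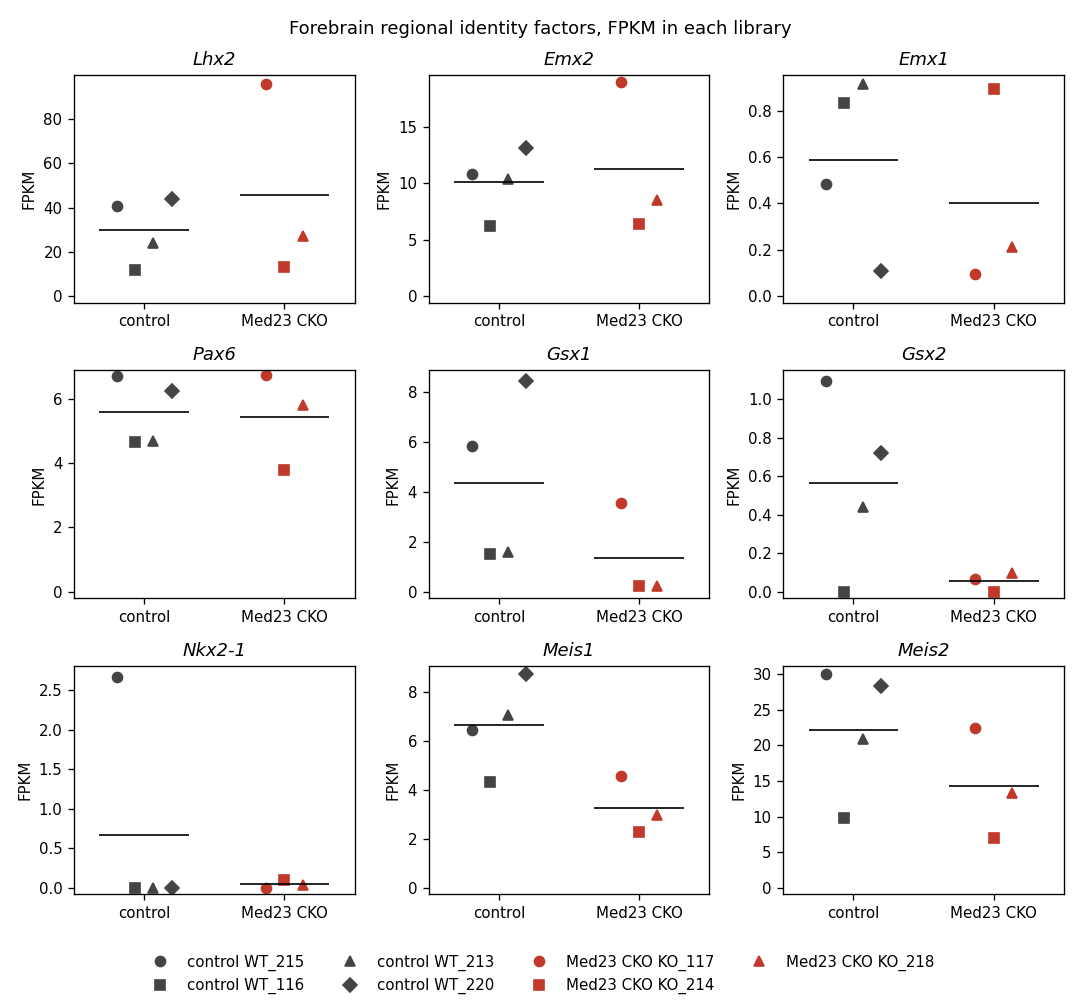
FPKM of the 9 genes in each library, one panel per gene with its own linear axis, control libraries on the left and Med23 CKO libraries on the right of each panel, symbols marking the mice and horizontal bars the group means. In every panel the Med23 CKO values overlap the control values, and the library KO_117 holds the highest Lhx2 and Emx2 values (95.7 and 19.0 FPKM).

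The dorsal members did not differ in one direction between the groups. Lhx2, a LIM homeodomain factor that cortical and hippocampal progenitors require to keep their identity, was present at 40.5, 11.9, 24.0 and 43.8 FPKM in control and at 95.7, 13.4 and 27.3 FPKM in Med23 CKO. The library KO_117 held the highest value of all and the other Med23 CKO values lay within the control range. The mean was 30.1 ± 14.9 FPKM (SD, n = 4) over the control libraries, against 45.5 ± 44.0 FPKM (SD, n = 3) over the Med23 CKO libraries, and the difference in mean log2(FPKM + 1) was 0.29 (SE 0.69). Without the library KO_117 the difference was -0.46, and without WT_116 it was -0.08. It was 0.91 without KO_214 and 1.10 without WT_215 and KO_214, so that its sign and size rested on single libraries. Lhx2 lies on the plus strand at chr2:38339281-38369733 of GRCm38.

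Emx2, which the hippocampus and dentate gyrus need to form, had its highest and lowest values in the same libraries as Lhx2. It was present at 10.9, 6.26, 10.4 and 13.1 FPKM in control and at 19.0, 6.41 and 8.54 FPKM in Med23 CKO, with a difference of 0.05 (SE 0.39) that became -0.37 without the library KO_117 and -0.14 without WT_116, but 0.35 without KO_214 and 0.39 without WT_215 and KO_214. Emx2 (chr19:59458372-59465357, plus strand) shares 264 bases with the antisense gene Emx2os, and since it was not stated that counting used the strand, reads there cannot be assigned to one or the other. Emx2os was measured at 1.14 to 1.53 FPKM in control and at 2.22, 1.06 and 1.71 FPKM in Med23 CKO.

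Pax6, a paired-domain and homeodomain factor of cortical progenitors that adult hippocampal stem cells also express, varied least, by 1.77-fold between the highest and the lowest library. It was present at 6.72, 4.66, 4.68 and 6.24 FPKM in control and at 6.73, 3.80 and 5.80 FPKM in Med23 CKO, a difference of -0.04 (SE 0.24). Pax6 lies at chr2:105668900-105697364 on the plus strand, and its antisense neighbour Pax6os1, which shares 1431 bases with it, did not exceed 0.0988 FPKM. Emx1, which marks dorsal progenitors and the excitatory neurons derived from them, was low throughout, at 0.485, 0.834, 0.914 and 0.111 FPKM in control and at 0.0952, 0.895 and 0.213 FPKM in Med23 CKO. The difference was -0.19 (SE 0.29), with high and low values in both groups. Emx1 (chr6:85187438-85204462, plus strand) just passed the level for testing, with a mean of 0.507 FPKM over the 7 libraries, whereas Nkx2-1 with 0.400 FPKM and Gsx2 with 0.346 FPKM did not.

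Among the ventral members, Gsx1 and Gsx2 had lower means in Med23 CKO with overlapping groups, and Nkx2-1 was above 1 FPKM in a single control library. Gsx1, which with Gsx2 specifies the lateral ganglionic eminence and promotes the step from progenitor to neuron, was present at 5.83, 1.499, 1.61 and 8.43 FPKM in control. In Med23 CKO it was at 3.55, 0.223 and 0.255 FPKM, so that the libraries of KO_214 and KO_218 lay below every control library and that of KO_117 lay between the control values. The means were 4.34 ± 3.39 FPKM (SD, n = 4) and 1.34 ± 1.91 FPKM (SD, n = 3), and the difference in mean log2(FPKM + 1) was -1.24 (SE 0.66). It was -1.87 without KO_117, -0.92 without KO_214 and -0.73 without WT_215 and KO_214 together. Gsx1 (chr5:147188696-147190947, plus strand) spanned the widest range of the 7 tested members, 37.8-fold between the highest and lowest library. The study lists Gsx1 and Meis1 among the genes it called lower in Med23 CKO, from these same libraries, so their direction has no independent source here.

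Gsx2, the paralog of Gsx1 and the earlier of the pair to set the border with the dorsal wall, was at 1.10, 0, 0.443 and 0.722 FPKM in control and at 0.0669, 0 and 0.0961 FPKM in Med23 CKO. The 3 highest values were control values, but the control library WT_116 was listed at 0, as was that of KO_214, and no fold is given. Gsx2 lies at chr5:75075601-75077893, plus strand. Nkx2-1 (chr12:56531958-56536908, minus strand), which specifies the medial ganglionic eminence and the hypothalamus, was at 2.67 FPKM in the library WT_215, was listed at 0 in the other 3 control libraries, and was at 0, 0.0941 and 0.0333 FPKM in Med23 CKO. Apart from that library, the only values above 0 were those of KO_214 and KO_218. The library with the most Nkx2-1 was also the one with the high Ttr level. The part of that difference in cell content in the Nkx2-1 level was not tested.

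The TALE factors were lower in Med23 CKO on average, and Meis1 came closest to separating the groups. Meis1 was present at 6.42, 4.29, 7.06 and 8.72 FPKM in control and at 4.57, 2.27 and 2.95 FPKM in Med23 CKO. Only the pair of WT_116 and KO_117 overlapped, and the other 2 Med23 CKO libraries were below all control libraries. The means were 6.62 ± 1.83 FPKM (SD, n = 4) and 3.26 ± 1.18 FPKM (SD, n = 3), and the difference of -0.84 (SE 0.29) ranged from -1.05 to -0.67 when each library was left out in turn. Meis1 lies on the minus strand at chr11:18879817-19018985, and overlaps several non-coding genes of the GENCODE annotation, none of which has a row of its own in the table.

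Meis2, which with Pax6 takes part in the making of olfactory bulb neurons and is abundant in the lateral ganglionic eminence, was the second most abundant member. It was present at 30.0, 9.76, 20.9 and 28.4 FPKM in control and at 22.5, 6.96 and 13.3 FPKM in Med23 CKO. The highest 2 values were control values and the lowest was that of KO_214, with the remaining libraries mixed. The difference was -0.63 (SE 0.48), changing to -1.01 without KO_117, to -0.23 without KO_214 and to -0.06 without WT_215 and KO_214. Meis2 lies at chr2:115863064-116065839 on the minus strand.

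**Figure D2:**
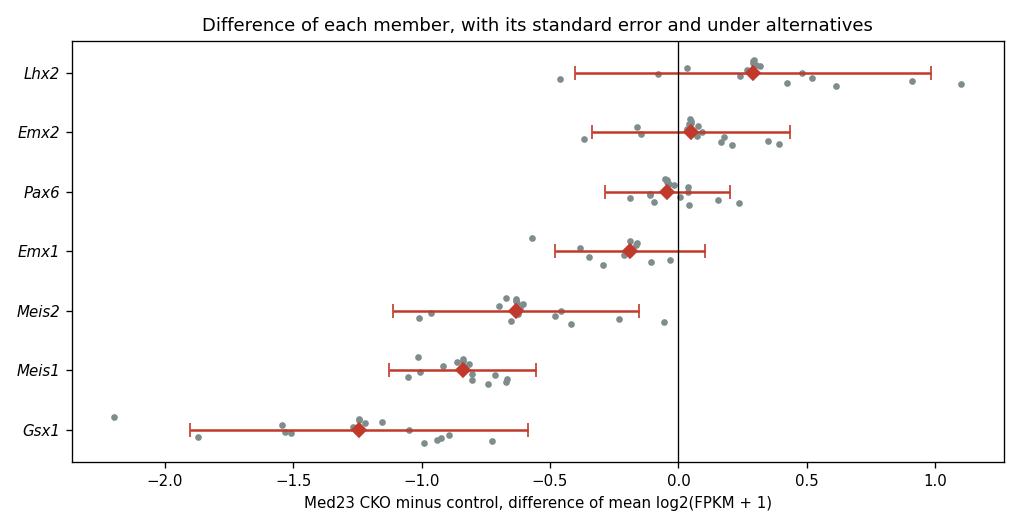
Difference in mean log2(FPKM + 1), Med23 CKO minus control, for the 7 members tested, with the filled symbol and bar giving the value and its standard error and the small marks the same value under the alternative settings and with libraries left out. Gsx1, Meis1, Meis2 and Emx1 stay below 0 under every alternative run, whereas Emx2, Lhx2 and Pax6 fall on both sides of 0.

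Counted over the 7 tested members, 2 were higher and 5 lower in Med23 CKO, with a median difference of -0.19. Over the 14151 genes tested, 56.2% were lower and the median was -0.03. The choice of the members used this contrast, so nothing is read from the following counts. By limma, 1 of the 7 (Meis1) was lower at an unadjusted p under 0.05, as were 0.996% of all genes tested, and 0 of the 7 were higher at that threshold, against 0.502%. By limma no member and no other gene tested passed an adjusted p of 0.05 (0%). The Med23 CKO values lay wholly below the control values for 0 of the 7 members and 1.53% of genes, and wholly above for 0 of the 7 and 0.784% of genes.

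No tested member separated the groups by its level, whereas some pairs of members did so as ratios within a library. For each pair of tested members the ratio of the FPKM values of the same library was taken. In 5 of 21 pairs the groups did not overlap, each pair being written so that the Med23 CKO ratios were the lower. The count therefore takes in both directions, whereas the shares of all genes given below are for lower ratios only. The share over all pairs of genes was not computed, and the 5 pairs have genes in common. In these pairs the upper gene was Gsx1, Meis1 or Meis2 and the lower gene was Lhx2, Emx2 or Pax6. The ratios use the same levels as the choice of members and are a description.

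Relative to Lhx2, Gsx1 stood at 0.144, 0.126, 0.0672 and 0.192 in control and at 0.0371, 0.0167 and 0.00934 in Med23 CKO, with means of 0.132 ± 0.0517 (SD, n = 4) and 0.0210 ± 0.0144 (SD, n = 3). Here the library KO_117, whose Gsx1 level was within the control range, lay below the control range, because its Lhx2 level was the highest of all. Meis2 relative to Lhx2 was 0.741, 0.821, 0.869 and 0.647 in control and 0.235, 0.520 and 0.486 in Med23 CKO. Over all other genes tested, the ratio to Lhx2 was wholly below control in 2.83%, and among the other 6 tested members it was so for 2. The ratio of Meis1 to Lhx2 overlapped between the groups by KO_214 (0.170) and WT_215 (0.159).

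Relative to Emx2, Meis1 was nearly constant in control, at 0.591, 0.685, 0.681 and 0.663, although the Emx2 level varied, and was lower in Med23 CKO, at 0.241, 0.354 and 0.345. The means were 0.655 ± 0.0436 (SD, n = 4) and 0.313 ± 0.0633 (SD, n = 3). Meis2 relative to Emx2 was 2.12 ± 0.498 (SD, n = 4) over the control libraries, against 1.28 ± 0.247 (SD, n = 3) over the Med23 CKO libraries, and the lowest control ratio (WT_116, 1.56) was barely above the highest Med23 CKO ratio (KO_218, 1.55). On the difference of log2(FPKM + 1) this pair overlapped and the pair of Gsx1 and Emx2 did not, again 5 of 21. The ratio to Emx2 was wholly below control for 2 of the other 6 tested members and 1.48% of all genes.

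Relative to Pax6, Meis1 was at 0.956, 0.920, 1.51 and 1.40 in control and at 0.679, 0.599 and 0.508 in Med23 CKO. This was 1 of the other 6 tested members, and 0.735% of all genes had a ratio to Pax6 wholly below control. The pairs made of dorsal members alone did not separate: Emx2 relative to Lhx2 was 0.382 ± 0.120 (SD, n = 4) over the control libraries, against 0.330 ± 0.141 (SD, n = 3) over the Med23 CKO libraries.

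**Figure D3:**
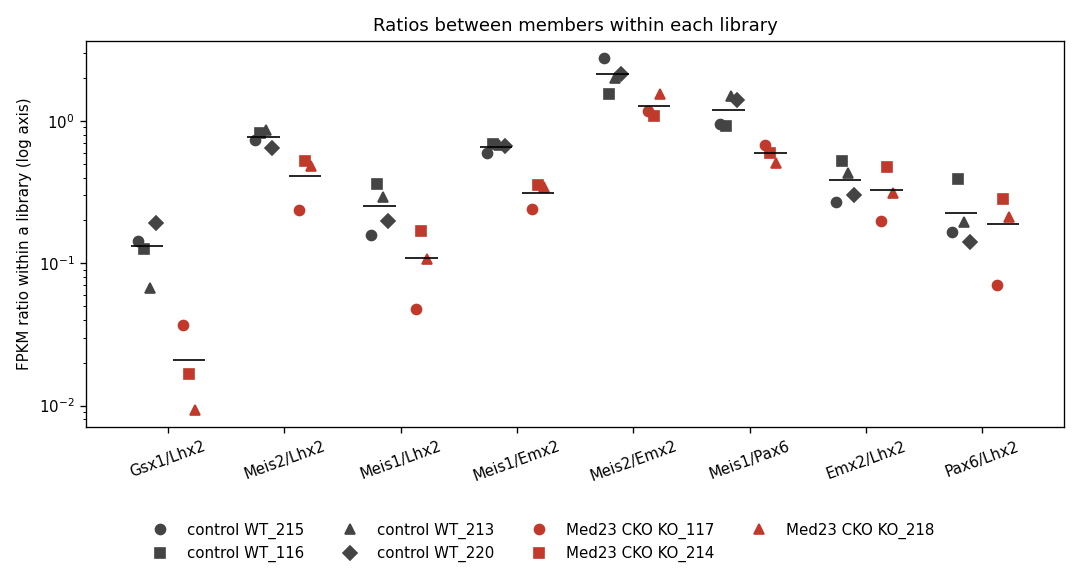
FPKM ratios between members within each library on a log axis, with control libraries and Med23 CKO libraries side by side for each pair, symbols marking the mice and horizontal bars the group means. In Gsx1/Lhx2, Meis1/Emx2, Meis1/Pax6, Meis2/Emx2 and Meis2/Lhx2 every Med23 CKO ratio is below every control ratio, by the narrowest margin in Meis2/Emx2 (1.55 against 1.56).

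Within both groups the members varied together from mouse to mouse, with the exception of Emx1. On log2(FPKM + 1), Pearson's r over the 7 libraries was 0.97 between Emx2 and Lhx2, 0.78 between Lhx2 and Meis2 and 0.43 between Lhx2 and Meis1. When each library was taken as its deviation from its group mean, these became 0.98, 0.96 and 0.92. Emx1 ran the other way, with r = -0.81 to Lhx2 and -0.83 to Pax6 over the 7 libraries. These values describe 7 points that share the composition of their cultures, and in bulk RNA fewer cells of a kind and less RNA per cell cannot be told apart.

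The shared course of the members was also that of the cycling markers, a list of 10 genes such as Mki67 and Top2a that dividing cells express. They summed to a level of 1102, 412, 612 and 1073 FPKM in control, compared with 1435, 254 and 711 FPKM in Med23 CKO, highest for KO_117 and lowest for KO_214. Against the mean log2(FPKM + 1) of this list, r was 0.96 for Pax6, 0.91 for Lhx2, 0.91 for Meis2, 0.89 for Emx2, 0.76 for Gsx1, 0.65 for Meis1 and -0.78 for Emx1. Against the mean of the microglia markers the signs were opposite, with r = -0.92 for Pax6, -0.84 for Gsx1 and 0.75 for Emx1. By mean log2(FPKM + 1) all 10 cycling markers were lower in Med23 CKO and all 11 tested microglia markers higher, 0 of each at an unadjusted p under 0.05, with medians of -0.47 and 0.86. Both directions rested on KO_214, since without it all 10 cycling markers were higher (median 0.59) and 9 of the 11 microglia markers were lower (median -0.11). By mean FPKM over all libraries 6 cycling markers were higher and 4 lower. The microglia list summed to 48.4 to 281 FPKM in control and 51.6 to 1060 FPKM in Med23 CKO. Of the endothelial and mural markers 10 were higher and 1 lower, though 2 and 9 without KO_214, summing to 62.3 to 138 FPKM and 56.7 to 324 FPKM, and of the ependymal and choroid plexus markers 0 were higher and 6 lower, summing to 19.3 to 654 FPKM and 11.2 to 74.3 FPKM. The neural stem and astrocyte markers, 4 higher and 8 lower, summed to 1944 to 4064 FPKM and 2167 to 3980 FPKM, so the ranges of these sums were close. Vim and Fabp7 gave most of the sums, with control means of 1407 and 1135 FPKM. Single markers varied more, such as Gfap at 17.8 to 138 FPKM in control and 19.4 to 321 FPKM in Med23 CKO.

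With the mean of the cycling markers as a covariate, an alternative added after the data were seen, the difference was -0.99 for Gsx1, -0.74 for Meis1 and -0.42 for Meis2, and 0.61 for Lhx2, 0.21 for Emx2, 0.04 for Pax6 and -0.29 for Emx1. Gsx1, Meis1 and Meis2 kept their sign with smaller differences, and those of Lhx2 and Emx2 became larger. The part of the other cell types in these differences was not tested.

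**Figure D4:**
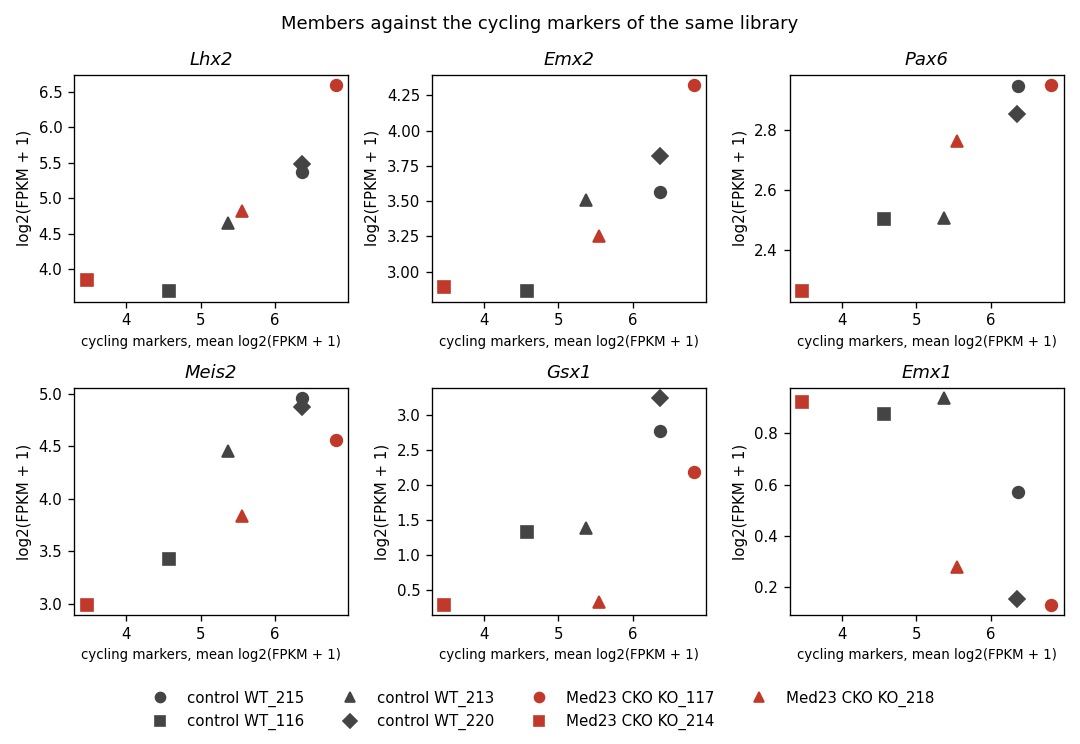
log2(FPKM + 1) of Lhx2, Emx2, Pax6, Meis2, Gsx1 and Emx1 against the mean log2(FPKM + 1) of the 10 cycling markers. There is one panel per gene and one symbol per library, with control and Med23 CKO in different colours, and Meis1 is not drawn. Pax6, Lhx2, Meis2 and Emx2 are higher where the cycling markers are higher (r = 0.96, 0.91, 0.91 and 0.89), and Emx1 is lower there (r = -0.78).

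Outside the members, the genes whose pattern was most like each one were taken as the 3 with the highest Pearson's r over the 7 libraries among 13132 genes (13133 for Emx1) with a mean of at least 1 FPKM. For Lhx2 they were Zbtb7c (r = 0.996), B3glct and A930024E05Rik, and for Emx2 N6amt1 (r = 0.993), Chsy1 and Kcnmb4os1. For Pax6 they included Kiz (r = 0.993) and Spin2c, and for Emx1 they were Syt5 (r = 0.989), H2-DMa and Nudt18. Gsx1 was matched most closely by Dpp6 (r = 0.993), Gareml and Jarid2, Meis2 by Lrrc7 (r = 0.995), Mpped2 and Klhl23, and Meis1 by Kcna2 (r = 0.970), Mrps23 and Nme3. A correlation of 0.9 or more was common for most members, being reached by 987 genes for Emx2, 946 for Lhx2, 757 for Gsx1 and 610 for Meis2. Meis1 had the fewest such genes (69).

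Kcna2, a voltage-gated potassium channel subunit and the gene most like Meis1, was at 16.9, 7.89, 12.6 and 18.4 FPKM in control and at 6.61, 3.09 and 3.71 FPKM in Med23 CKO. Dpp6, an auxiliary subunit of potassium channels and the gene most like Gsx1, was at 18.8, 10.6, 11.4 and 22.7 FPKM in control and at 13.8, 7.12 and 6.26 FPKM in Med23 CKO. In both genes the libraries of KO_214 and KO_218 were the lowest, as they were for Gsx1 and Meis1. Both genes were picked by their correlation over these same libraries, so this likeness is no separate result.

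Most of the other ventral genes tested had lower means in Med23 CKO on log2(FPKM + 1), whereas most of those too low to be tested did not. Of 19 other ventral genes, 11 passed the level for testing, and 10 of these were lower in Med23 CKO and 1 higher (Ebf1, difference 0.63, SE 0.43). Over all genes tested 56.2% were lower. The median difference was -0.51 beside -0.03 for all genes. Shh, Dlx2 and Sp9 passed the level for testing through their control values, with means of 1.46, 1.15 and 0.853 FPKM. Their Med23 CKO means were 0.148, 0.171 and 0.199 FPKM, so their lower direction is tied to that level. With a filter at a mean of 1 FPKM 8 genes were tested, with a median of -0.30 and 0 at an unadjusted p under 0.05 by limma. By mean FPKM Nkx6-2, 1 of the 10, was not lower, at 21.9 FPKM in control and 22.1 FPKM in Med23 CKO. All lists were chosen with earlier results of these data known, so their counts and p-values are a description. Shh, 1 of the 11, was lower at an unadjusted p under 0.05 by limma, and 0 of the 11 passed an adjusted p of 0.05. This secreted signal of the ventral midline was at 1.28, 0.692, 2.60 and 1.26 FPKM in control and at 0.0838, 0.316 and 0.0437 FPKM in Med23 CKO, with no overlap between the groups. Its difference was -1.05 (SE 0.28, limma adjusted p = 0.9999, two-sided exact permutation p = 0.0571, where the smallest possible is 0.0286). Shh is also on the study's own list of lower genes, drawn from these libraries, and so is not independent evidence of the direction.

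Dlx2, a target of Gsx factors in the ganglionic eminences, was at 3.12, 0.366, 0.581 and 0.555 FPKM in control and at 0.0889, 0.241 and 0.181 FPKM in Med23 CKO, highest by far in the library WT_215, with a difference of -0.72 (SE 0.39, two-sided exact permutation p = 0.0857). The size of this difference rested on WT_215. Without that library Dlx2 averaged below the level for testing, and no difference is given. Etv1, an ETS factor, was at 27.3 to 33.8 FPKM in control and at 23.8 to 26.8 FPKM in Med23 CKO, a difference of -0.24 (SE 0.15, two-sided exact permutation p = 0.0571). Shh, Dlx2 and Etv1 were the 3 of the 11 with all Med23 CKO values below control, as in 1.53% of all genes tested. Sp8, a zinc finger factor of the lateral ganglionic eminence that was too low to be tested, went the other way, at 0.263, 0.297, 0.235 and 0.0573 FPKM in control and at 0.815, 0.603 and 0.960 FPKM in Med23 CKO, all above control. Of the other genes too low to be tested, Dlx6, Lhx6, Lhx8, Isl1 and Gli1 also had higher means in Med23 CKO, and Dlx1 and Dlx5 lower ones. With all 19 genes tested without the filter, an unadjusted p under 0.05 was reached by 1 gene in each direction. Olig2, the most abundant gene of the list and also a marker of the oligodendrocyte lineage, was at 461, 152, 215.3 and 701 FPKM in control and at 505, 84.0 and 149 FPKM in Med23 CKO. The oligodendrocyte markers were lower in 9 of 10 cases (median -0.66, 0 at an unadjusted p under 0.05) and summed to 2456 to 5307 FPKM in control and 1779 to 3250 FPKM in Med23 CKO. Without KO_214, 10 were lower and 0 higher (median -1.21), and without WT_215 and KO_214, 8 were lower and 2 higher (median -1.28). The part of the oligodendrocyte lineage in the ventral values was not tested. Without the library KO_214 the median of the ventral list was -0.22, and without WT_215 and KO_214 it was -0.13, so its size rested on those libraries.

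**Figure D5:**
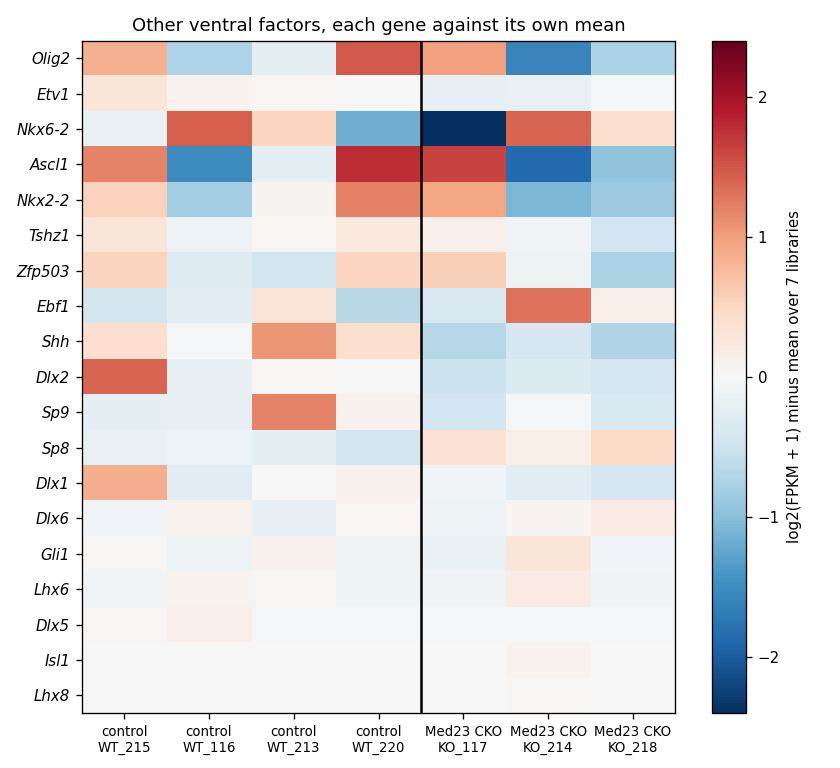
The 19 other ventral genes, tested or not, one row per gene in order of mean level and one column per library, with colour giving log2(FPKM + 1) minus the gene's mean over the 7 libraries. Shh, Dlx2 and Etv1 are below their mean in all 3 Med23 CKO libraries, while Olig2 and Nkx2-2 are above it in the library KO_117 and below it in those of KO_214 and KO_218.

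With all libraries kept, the other dorsal, anterior, hem and caudal lists had medians nearer to that of all genes than the ventral list. This contrast was not kept without KO_214, with medians of -0.22 (ventral), -0.22 (dorsal), -0.24 (caudal), -0.14 (hem) and 0.04 (anterior). Without WT_215 and KO_214 they were -0.13 (ventral), -0.17 (dorsal), -0.30 (caudal), -0.15 (hem) and 0.25 (anterior). The counts and medians that follow are for all libraries. Of 17 further dorsal genes 10 were tested, 4 higher and 6 lower with a median of -0.07 and 0 at an unadjusted p under 0.05. Within them Dmrt3, a factor of the medial cortical wall, was at 1.29, 1.76, 2.89 and 0.494 FPKM in control and at 3.34, 2.82 and 3.26 FPKM in Med23 CKO (difference 0.75, SE 0.33), while its relative Dmrta2 differed by -0.42 (SE 0.58). Prox1 and Zbtb20, which mark the dentate gyrus and hippocampus, were present in all libraries at 7.15 to 14.7 FPKM and 6.89 to 11.2 FPKM. Of 10 anterior genes 6 were tested, 1 higher and 5 lower (median -0.11). Of 12 genes of the cortical hem and roof plate, the dorsal midline that borders the hippocampus, 7 were tested with 3 higher and 4 lower (median -0.0028). Of 27 caudal genes of midbrain, hindbrain and spinal cord only 4 reached the level for testing, 2 higher and 2 lower (median 0.01), and the summed level of the 27 was between 1.78 and 7.91 FPKM in every library. The study lists Wnt8b of the hem list and Barhl2 of the caudal list among its lower genes, from these same libraries. Both were too low to be tested here and their groups overlapped. Wnt8b averaged 0.478 FPKM in control and 0.109 FPKM in Med23 CKO, and Barhl2 0.601 FPKM and 0.197 FPKM.

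Partners of the members made up the last 2 lists. All 9 TALE partners were tested, 3 higher and 6 lower with a median of -0.02. Among them Pbx3 differed by -0.55 (SE 0.26) and Meis3, the third Meis paralog, by -0.34 (SE 0.29). All 10 genes of the complex that LIM homeodomain factors such as Lhx2 form were tested, 3 higher and 7 lower with a median of -0.08. Ldb1, the adaptor that Lhx2 needs for its activity, was at 34.2 to 66.3 FPKM in control and at 26.2 to 64.5 FPKM in Med23 CKO, and Lmo4, which competes for the adaptor, at 66.5 to 129 FPKM and 63.2 to 151 FPKM. Neither list had a gene at an unadjusted p under 0.05 by limma, nor did the anterior, hem or caudal lists. Of the neuronal markers Gad1, which makes the transmitter of the inhibitory neurons that ventral domains give rise to, was at 11.6, 8.92, 12.2 and 11.1 FPKM in control and at 5.24, 2.21 and 4.42 FPKM in Med23 CKO, with no overlap and a difference of -1.32 (SE 0.27, limma adjusted p = 0.9999, two-sided exact permutation p = 0.0286, the smallest possible). The related gene Gad2 of the same list overlapped between the groups, at 0.786 to 3.12 FPKM in control and at 0.929 to 1.48 FPKM in Med23 CKO. Its difference was -0.30 (SE 0.34, two-sided exact permutation p = 0.457). Gad1 was the 1 of 12 neuronal markers at an unadjusted p under 0.05, of which 9 were lower and 3 higher. This list too was chosen with earlier results of these data known.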

How the data were processed

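RNA-seq of 7 neurosphere libraries was analysed. Per the labels and the study's methods, the authors trimmed adapters, aligned the reads by TopHat to the mm10 build and had Cuffdiff compute one FPKM per gene; versions of TopHat and Cuffdiff were not given in the sources used here. The FPKM of each library was used as deposited. The authors' group means, fold changes, test statistics, p-values and q-values in the same table were not used, and 0 columns lacked a sample. Read counts were not used, so the depth is unknown and the number of libraries limits the precision. The study states n = 3 in each group, while the table holds 4 control libraries, all kept.

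Values were taken as log2(FPKM + 1). The 14151 genes averaging 0.5 FPKM or more were fitted with limma 3.58.1 in R 4.3.3 (lmFit, eBayes with trend, two-sided, Benjamini-Hochberg adjustment), tested on simulated data first. Fold changes on this scale understate the change of low genes. Single genes that are not members were also tested by exact permutation over the 35 assignments of libraries. The members and all lists were chosen with earlier results of these data known. From each list, the text draws on genes at an unadjusted p under 0.05, the 3 highest in mean FPKM, the 3 with the largest difference and the first 3 listed, and Mki67, Top2a, Nkx2-2 and Emx2os, Pax6os1 beside them. Some genes are not reported here. P-values set a group difference against the spread between libraries, each from the cells of 1 mouse. Groups share no mouse numbers, so no pairing was fitted. Coordinates are GENCODE M21 and promoters RefSeq, both on GRCm38; motif matches were counted on both strands. The alternatives were a pseudocount of 0.1, no filter, a filter at a mean of 1 FPKM, quantile normalization, median centring, array weights, the leading digit of the mouse's number in the model, limma without trend and each library left out, with the 2 added later: without WT_215 and KO_214, and cycling markers as covariate. Marker lists were also counted by mean FPKM and without KO_214, chosen after seeing the data. Ebf1, Sp8, Sp9, Dlx6, Lhx6, Lhx8, Isl1, Gli1, Wnt8b, Barhl2 and Gad2 were named after their values were seen.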

Additional observations from a re-analysis of the deposited data

Results flagged for a closer look

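Nkx2-1 was at 2.67 FPKM in the library WT_215 and at 0 in the other 3 control libraries, so that this library stood apart from its group. Of the 9 members' control groups checked for such a gap this was the only one, and chance marks about 1 in 20 groups. The same library held 630 FPKM of Ttr, and the part of that content in the Nkx2-1 value was not tested.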

How the results depend on the processing

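Over 17 alternatives, all 114 values of the tested members moved by less than 1 SD between replicates. For many settings this was fixed in advance and says nothing of stability. Leaving out 1 library of a group this small cannot move its mean that far. The filters and the fit without trend do not change a member's difference. Within this limit the difference of Lhx2 ran from -0.46 to 1.10. Gsx1 (-2.198 to -0.73), Meis1 (-1.05 to -0.67), Meis2 (-1.01 to -0.06) and Emx1 (-0.57 to -0.03, 12 alternatives) kept their sign, and Lhx2 did in 15 of 17, Emx2 in 14 and Pax6 in 11. Shh ran from -2.67 to -0.85 over 16 alternatives. The number of genes higher at an unadjusted p under 0.05 (71) was 140 with no filter, 193 with array weights, 175 with cycling markers as covariate and 44 to 362 with each library left out. The number lower (141) was 887 with array weights, 348 with the covariate and 71 to 410 with each library left out. The median of the other ventral list (-0.51) was -0.23 with no filter, -0.13 without WT_215 and KO_214 and -0.65 to -0.22 with each library left out. That of the other dorsal list was -0.22 to 0.063 with each library left out, and that of the TALE partners -0.30 with array weights and -0.47 to 0.0026 with each left out. The other 112 of 119 list medians moved by less than 1 SD. By group medians, 6 of 9 members kept their place in the order. The causes were not tested. No paired analysis was possible because the groups share no mouse numbers. Values under 1 FPKM (Emx1, Gsx2, Nkx2-1) are limited by an unknown depth.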
